A study of Homo sapiens with 3 samples.

Results

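Respiratory complex I, NADH:ubiquinone oxidoreductase, was followed through the messenger RNA of 36 of its nuclear-encoded subunits, chosen by name from the 26562 genes of the deposited tables. All 36 were found, and 31 had a mean of at least 1 FPKM over the libraries, the level set for testing. FPKM scales fragments to transcript length and to the mapped total, so it is a relative level within a library. The RNA came from MTAC-P, a human lung cancer line derived from PC9 that resists inhibitors of the EGFR tyrosine kinase. The control, 1 library, carried a hairpin against luciferase (labelled MTAC-shLuciferace), and 2 libraries were labelled as carrying hairpins against BCAT1, the cytosolic branched-chain aminotransferase. All were grown in DMEM with serum, and the labels name no separate cultures, so p-values measure only how these libraries vary, and that variation may be technical. The labels do not say whether 1 and 2 number different hairpins or repeats of the same hairpin. Every SD, SE and p-value from this pair may therefore hold a difference between hairpins. In bulk RNA of this kind, fewer cells with a transcript and less of it per cell cannot be told apart.

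Complex I takes electrons from NADH in the mitochondrial matrix, passes them through a flavin and a chain of iron-sulfur clusters to ubiquinone, and pumps protons across the inner membrane. Its matrix arm holds the core subunits that carry these cofactors. Accessory subunits surround both arms and are needed for assembly and stability, and dedicated assembly factors join the modules. The mitochondrially encoded core subunits were not analysed here.

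The targeted gene did not follow the label. BCAT1 was at 0.213 FPKM in the control (bounds 0.129 to 0.297), against 1.055 (0.835 to 1.27) for the library labelled shBCAT1 1 and 0.241 (0.158 to 0.325) for that labelled shBCAT1 2. It was therefore 4.96 times the control in the first and 1.13 times in the second, with a mean log2(FPKM + 1) difference of 0.40 ± 0.43 (SE, limma adjusted p = 0.863 in a fit with no minimum level). Both libraries are named by their labels throughout, and a lower value is a difference between labelled libraries. Over all genes FPKM summed to 53898 in the control, against 44313 and 46145 for the libraries labelled shBCAT1 1 and 2. The relative depth read from the bounds was 1.03 and 1.09 times the control, and the median SD of a tested gene was 12.5% to 13.6% of its value. Of the epithelial markers, 7 of 9 reached 1 FPKM, with a summed level of 941.5, 791.5 and 1098 FPKM, and KRT7, KRT8, KRT18 and KRT19 were the high ones. The lung lineage markers NKX2-1 and SFTPB lay at or below 0.101 FPKM in every library. Fibroblast markers summed to at most 0.259 FPKM, with 4 of 5 at 0, and of 5 leukocyte markers CD68 alone reached 1 FPKM while PTPRC was at 0.

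Most subunits were lower in both libraries labelled shBCAT1 than in the control. The 36 subunits summed to 530.2 FPKM in the control, against 384.7 for the library labelled shBCAT1 1 and 365.1 for that labelled shBCAT1 2. That is 72.6% and 68.9% of the control, against 82.2% and 85.6% for the FPKM total of all genes. The subunits held 0.984%, 0.868% and 0.791% of the total in the same order. Among the 31 tested subunits, 27 (87.1%) were lower than the control in both libraries, against 43.7% of the 3889 genes tested. The 4 exceptions were NDUFA6, NDUFA8, NDUFB3 and NDUFC1. None was higher in both, against 25.6% of all genes tested. With the trend on transcript length removed, 6 of 30 subunits were higher in both, against 1323 of all 3800 genes. With the trend on fragments per FPKM removed it was 5 of 31, against 1324 of 3889. With quantile normalization it was 2 of 31, against 1481 of 3889. Transcript length moved with this result: among other genes of 500 to 1000 bases with at least 3 FPKM, 84.8% were lower in both libraries.

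No subunit passed the test. With 1 control library the spread came from the libraries labelled shBCAT1 alone, on 1 residual degree of freedom, and the control was assumed to vary like them. No subunit had a limma adjusted p under 0.05, against 0.36% of all genes tested, 14 in number and all lower. Adjusted p-values of the subunits ran from 0.797 to 0.979. At an unadjusted p under 0.05, 7 of 31 (22.6%) were lower, namely NDUFA12, NDUFB1, NDUFB2, NDUFB9, NDUFB11, NDUFS5 and NDUFS6, against 4.96% of all genes. None was higher at that level, against 0.643%. Counting either direction, 1 of 30 subunits had such a p with the length trend removed, against 185 of all 3800 genes. With the trend on fragments per FPKM removed it was 0 of 31, against 129 of 3889. With quantile normalization it was 1 of 31, against 168 of 3889. An exact permutation test of 1 library against 2 cannot give a two-sided p below 0.333. The subunits' median difference from the control was -0.42 on the log2(FPKM + 1) scale, a scale that understates the change of low genes, and the median over all genes tested was -0.06. The subunits' median was below 0 under every alternative run, but it was -0.25 with quantile normalization and -0.16 with the trend on transcript length removed.

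Library by library, the subunits' median difference was -0.41 for the library labelled shBCAT1 1 and -0.44 for that labelled shBCAT1 2, while the median over all genes was -0.12 and 0.01. In the library labelled shBCAT1 1, 28 of 31 subunits (90.3%) were below the control, against 68.7% of all genes. In the library labelled shBCAT1 2 it was 30 of 31 (96.8%), against 49.0%. Of the 31 subunits, 20 (64.5%) were lower in the library labelled shBCAT1 2 than in the library labelled shBCAT1 1, against 31.7% of all genes. As a percentage of the control, the median subunit stood at 74.3% (46.4% to 111%) for the library labelled shBCAT1 1 and at 68.1% (52.3% to 125%) for that labelled shBCAT1 2. The medians over all genes tested were 88.8% and 101%. Both libraries are set against the same control, so these values are not independent of each other. With the trend on transcript length removed, the subunits' median differences were -0.13 and -0.18 in the same order. The medians over all genes were then -0.0023 and 0.0042.

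**Figure D1:**
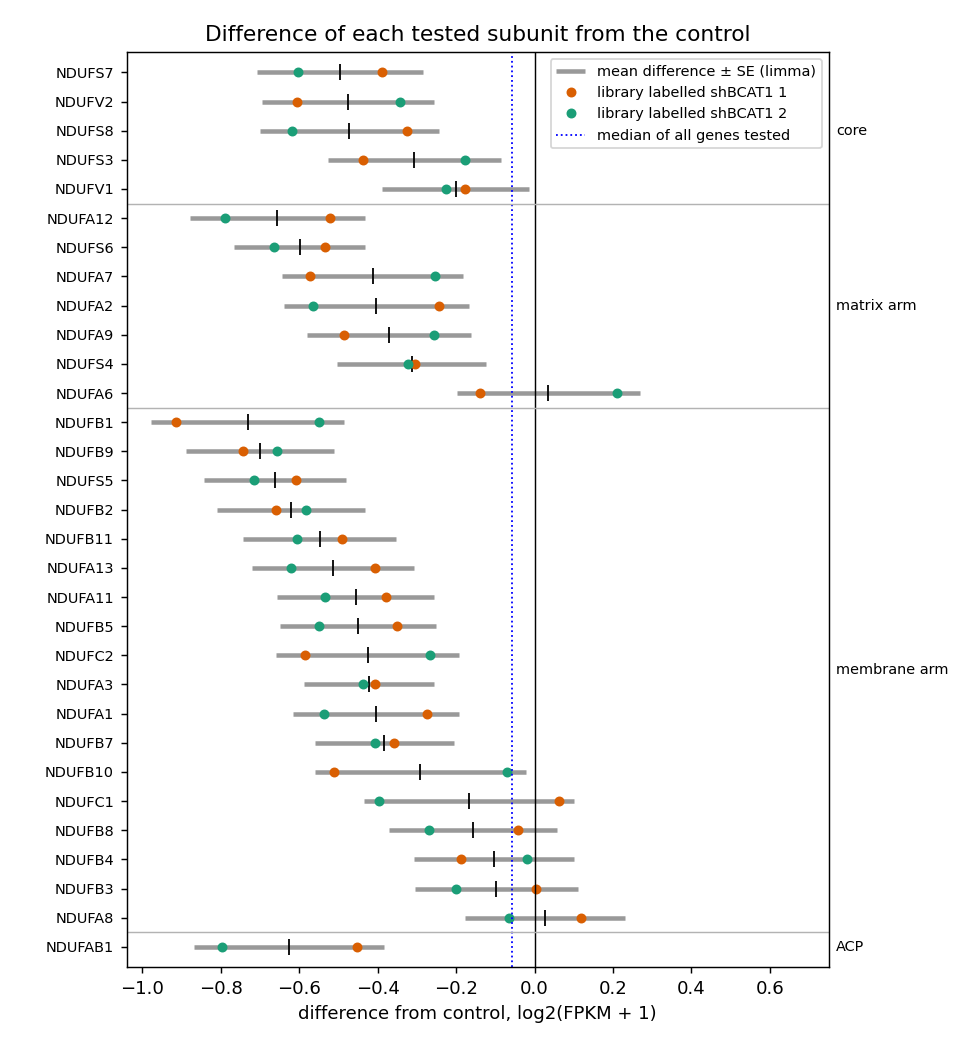
Difference from the control in log2(FPKM + 1) for the 31 tested subunits, grouped by role: points are the libraries labelled shBCAT1 1 and 2, ticks their mean, grey bars ± 1 SE from limma and the dotted line the median of all genes tested (-0.06). The mean lies below 0 for every subunit shown except NDUFA6 and NDUFA8, and the subunits' median is -0.42.

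The deposited confidence bounds, which cover counting error and the assignment of fragments to transcripts but no spread between libraries, gave a narrower count. Bounds lay wholly below those of the control for 3 of 31 subunits (9.68%: NDUFB2, NDUFS5 and NDUFS6) in the library labelled shBCAT1 1, against 7.61% of all genes. In the library labelled shBCAT1 2 they did so for 7 (22.6%: NDUFA1, NDUFA13, NDUFAB1, NDUFS5, NDUFS6, NDUFS7 and NDUFS8), against 7.66%. In both libraries they did so for NDUFS5 and NDUFS6 alone (6.45%, against 4.17%). No subunit had bounds wholly above the control, against 1.65% of all genes for the library labelled shBCAT1 1, 7.35% for that labelled shBCAT1 2 and 1.26% for both. The median tested subunit had the precision of 66.6 fragments in the control.

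Levels differed far more between subunits than between libraries. FPKM is scaled to the length in the authors' models, so an order of levels carries any error in those lengths and in the assignment of fragments. Over the 36 subunits, mean FPKM and fragments per FPKM had a Spearman's rho of -0.636. In the control the highest subunit, NDUFS6, was 647 times the lowest, NDUFA5, a ratio that rests on 4.85 equivalent fragments of NDUFA5 (bounds 0.0148 to 0.309 FPKM). There, 8 subunits stood at 20 FPKM or more and 23 between 1 and 20. The 5 highest held 54.7%, 54.5% and 53.1% of all subunit FPKM, in the order control, shBCAT1 1 and shBCAT1 2 by label. The order of levels was nearly the same in the 3 libraries, with Spearman's rho of 0.984 to 0.985 over the 36 genes for each pair of libraries, which is a description across genes that share libraries and transcript models.

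**Figure D2:**
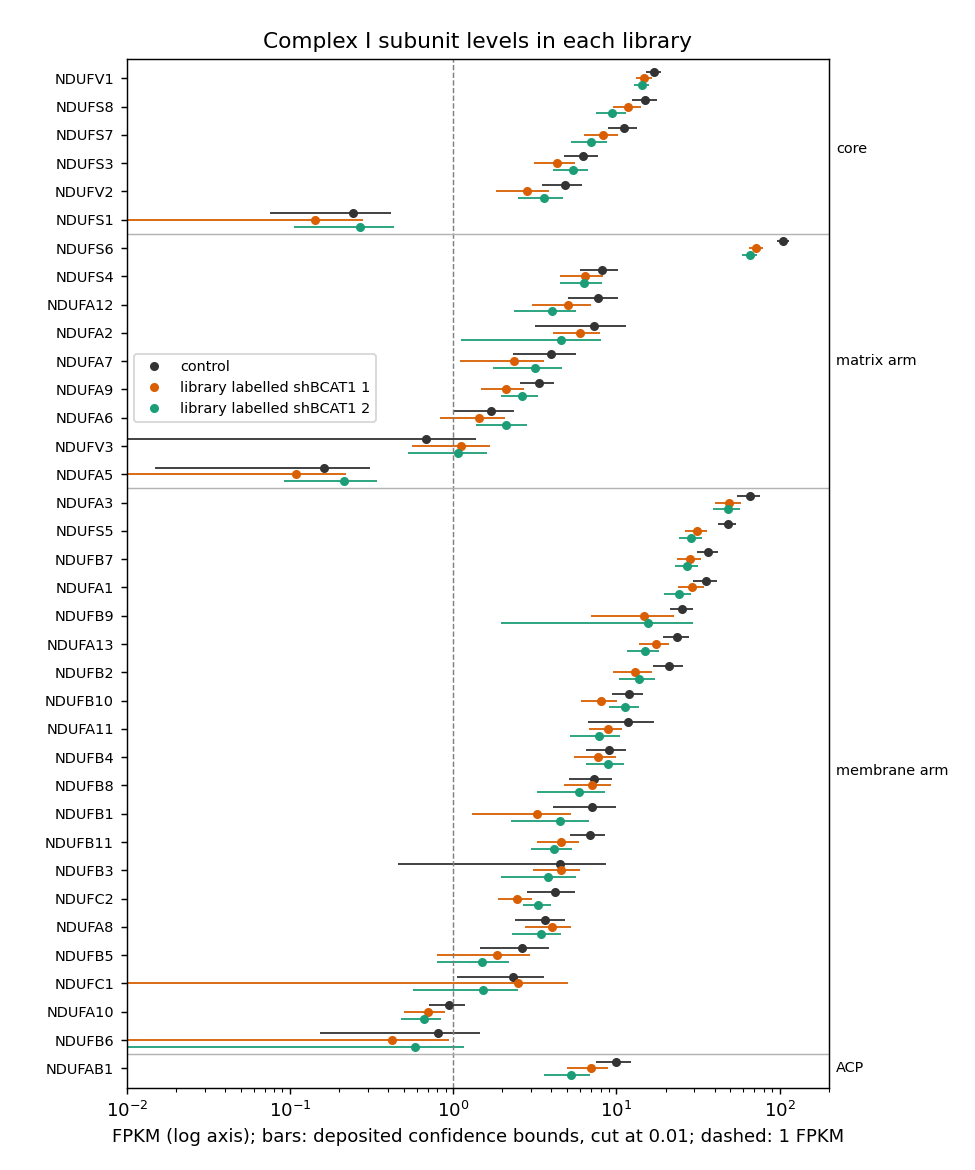
FPKM of the 36 subunits on a log axis for the control and both libraries labelled shBCAT1, grouped by role, with a dashed line at 1 FPKM. Bars are the bounds, combined over entries where a gene has several and cut at 0.01. Bars of NDUFS6 and NDUFS5 lie apart from the control in both libraries, whereas every other subunit overlaps it in at least 1 of them.

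Among the core subunits, all 5 that were tested lay below the control in each library, against 43.7% of all genes tested. Their median difference was -0.47. With the length trend removed, 4 of 5 were lower in both, against 34.7%. NDUFV1 (hg38 chromosome 11, 67606852 to 67612541 in the files), which binds FMN and is where NADH gives up its electrons, was at 16.9 FPKM in the control, against 14.8 for the library labelled shBCAT1 1 and 14.3 for that labelled shBCAT1 2, a difference of -0.20 ± 0.19 (SE) that became 0.0709 with quantile normalization. It had the precision of 361, 327 and 334 fragments and its bounds overlapped the control in both. NDUFV2 (chromosome 18, 9102630 to 9134345), an iron-sulfur protein beside NDUFV1, was at 4.84, 2.84 and 3.61 FPKM in the same order, a difference of -0.47 ± 0.22. NDUFS8 (chromosome 11, 68030617 to 68036647), which carries iron-sulfur clusters on the way to ubiquinone, was at 15.0, 11.8 and 9.44 FPKM, a difference of -0.47 ± 0.23. Its bounds in the library labelled shBCAT1 2 (7.48 to 11.4) lay below those of the control (12.5 to 17.6), and those for that labelled shBCAT1 1 (9.55 to 14.1) overlapped them. NDUFS7 (chromosome 19, 1383884 to 1395589), which carries the last cluster before ubiquinone, was at 11.2, 8.29 and 7.01 FPKM, a difference of -0.50 ± 0.21. NDUFS3 (chromosome 11, 47579010 to 47584563), at the ubiquinone end of the matrix arm, was at 6.24, 4.35 and 5.41 FPKM, a difference of -0.31 ± 0.22. NDUFV2 and NDUFS3 were lowest in the library labelled shBCAT1 1, the others in the library labelled shBCAT1 2.

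NDUFS1 (chromosome 2, 206123079 to 206159519), which carries several iron-sulfur clusters, stood apart by its level, at 0.244, 0.143 and 0.270 FPKM, with overlapping bounds and fewer than 11 equivalent fragments in each library. The files hold 5 transcripts of it, and nearly all of its signal lay on 1 transcript in the control and on another in both libraries labelled shBCAT1. Its level in these libraries therefore rests on few fragments and on how they were assigned.

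The accessory subunits of the matrix arm had a median difference of -0.40, with 6 of 7 tested genes lower in both libraries, against 43.7% of all genes tested. With the length trend removed it was 3 of 6, against 34.7%. NDUFS6, a zinc-binding subunit (chromosome 5, 1801382 to 1816051), was the most abundant of all subunits, at 105 FPKM in the control, against 72.1 for the library labelled shBCAT1 1 and 65.7 for that labelled shBCAT1 2. The control's bounds were 95.8 to 114, and the others reached at most 79.5 and 72.5, so the groups did not overlap. Its difference was -0.60 ± 0.17 (limma unadjusted p = 0.0229, adjusted p = 0.797), and its mean over both libraries labelled shBCAT1 was 68.9 ± 4.51 FPKM (SD, n = 2). NDUFA12 (chromosome 12, 94971328 to 95003713) was at 7.66, 5.03 and 4.01 FPKM, a difference of -0.66 ± 0.22, and was lower in both libraries while its bounds overlapped the control in each. With the length trend removed, the difference was -0.39 for NDUFS6 and -0.26 for NDUFA12. With the trend on fragments per FPKM removed it was -0.26 and -0.32. NDUFS6 was at -0.248 with quantile normalization, and NDUFA12 at -0.465 with the most abundant entry only.

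The other matrix-arm accessory genes lay nearer the control or rested on fewer fragments. NDUFS4, whose loss is known as a cause of Leigh syndrome, was at 8.14, 6.40 and 6.31 FPKM, the closest agreement between the libraries labelled shBCAT1 in this group. NDUFA9, which sits where the arms meet near the ubiquinone site, was at 3.36, 2.11 and 2.65 FPKM on 71, 46 and 61 fragments. NDUFA2 was at 7.29, 6.004 and 4.604 FPKM and NDUFA7 at 3.997, 2.36 and 3.19 FPKM. NDUFA6, a LYR-motif protein that binds the acyl carrier protein, was the exception, at 1.69 FPKM in the control, against 1.45 for the library labelled shBCAT1 1 and 2.11 for that labelled shBCAT1 2, a difference of 0.04 ± 0.23. NDUFA5 and NDUFV3 were below the level for testing, with NDUFA5 at 0.162, 0.109 and 0.216 FPKM. NDUFV3 was higher in both libraries labelled shBCAT1, at 0.683, 1.12 and 1.07 FPKM, but on fewer than 16 equivalent fragments in each library and with overlapping bounds.

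The membrane-arm accessory subunits had a median difference of -0.42, and 15 of 18 tested genes were below the control in each library, against 43.7% of all genes tested. With the length trend removed it was 9 of 18, against 34.7%. NDUFS5 (chromosome 1, 39026295 to 39034636), a CHCH-domain subunit on the intermembrane-space side, was at 47.9 FPKM in the control (41.9 to 54.0), against 31.1 (26.4 to 35.9) for the library labelled shBCAT1 1 and 28.8 (24.3 to 33.2) for that labelled shBCAT1 2. Its bounds did not overlap the control in either library, and its difference was -0.66 ± 0.18 (limma adjusted p = 0.797). That difference was -0.24 with the length trend removed and -0.28 with quantile normalization. NDUFB2 (chromosome 7, 140696681 to 140706646) was at 21.1, 13.01 and 13.8 FPKM, a difference of -0.62 ± 0.19, or -0.18 with the length trend removed. Its upper bound was 16.4 for the library labelled shBCAT1 1 and 17.2 for that labelled shBCAT1 2, around the control's lower bound of 16.8, so the bounds lay apart in the first and overlapped in the second. NDUFB9, a LYR-motif subunit at the far end of the membrane arm, was at 25.3, 14.7 and 15.7 FPKM, a difference of -0.70 ± 0.19. That became -0.33 with the length trend removed. Fragments of NDUFB9 were shared among 4 transcripts. Its combined bounds widened from 21.3 to 29.4 in the control to 1.95 to 29.5 in the library labelled shBCAT1 2, and overlapped the control. Minor transcripts carried SDs of up to 4.83 FPKM in that library. The main transcript of NDUFB9 was at 21.0, 11.3 and 13.65 FPKM, with SDs of 1.75, 1.30 and 1.94. On that transcript alone, value ± 2 SD lay apart from the control in the library labelled shBCAT1 1.

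NDUFB1 (chromosome 14, 92116124 to 92121809), among the smallest subunits, was at 7.06 FPKM in the control, against 3.28 for the library labelled shBCAT1 1 and 4.51 for that labelled shBCAT1 2, the lowest difference of any subunit at -0.73 ± 0.25. It rested on 23, 11 and 16 fragments, its bounds overlapped, and its difference was -0.24 with the length trend removed. NDUFB11, encoded on the X chromosome (47142216 to 47145210), was at 6.84, 4.58 and 4.16 FPKM on 66.6, 50.1 and 51.2 equivalent fragments, a difference of -0.55 ± 0.20. Its more abundant transcript was at 4.09, 2.99 and 3.57 FPKM and the other at 2.76, 1.59 and 0.586 FPKM. With the most abundant entry only, the difference of NDUFB11 was -0.25, and with the length trend removed it was -0.38. The abundant NDUFA3 and NDUFB7 had nearly equal values in both libraries labelled shBCAT1. NDUFA3 was at 65.5, 49.1 and 48.1 FPKM and NDUFB7, another CHCH-domain subunit, at 36.4, 28.2 and 27.2 FPKM, with differences of -0.42 (0.0178 with quantile normalization) and -0.38 (0.0458 with the length trend removed). NDUFA1, also X-linked, was at 35.4, 29.1 and 24.1 FPKM and NDUFA13, known too as GRIM-19, at 23.5, 17.5 and 14.9 FPKM. Both were lower in the library labelled shBCAT1 2, where their bounds lay below the control.

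Other membrane-arm genes varied between the libraries labelled shBCAT1. NDUFB10 was at 11.96 FPKM in the control, against 8.09 for the library labelled shBCAT1 1 and 11.4 for that labelled shBCAT1 2, so that its difference of -0.29 ± 0.27 came mostly from the first. NDUFC2 was at 4.19, 2.46 and 3.32 FPKM and NDUFA11 at 11.8, 8.85 and 7.85 FPKM. NDUFB5 was at 2.66, 1.87 and 1.496 FPKM, with its signal on 3 transcripts in the control and on 1 of them in the library labelled shBCAT1 2. NDUFC1 was at 2.33, 2.48 and 1.53 FPKM, and the most abundant of its 7 transcripts was a different one in the library labelled shBCAT1 2. NDUFA10 and NDUFB6 were below the level for testing, at 0.946, 0.698 and 0.661 FPKM and at 0.808, 0.421 and 0.580 FPKM, both with overlapping bounds.

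The membrane-arm genes nearest the control were NDUFA8, NDUFB3, NDUFB4 and NDUFB8. NDUFA8, a CHCH-domain subunit, was at 3.63, 4.03 and 3.43 FPKM, a difference of 0.03 ± 0.20. NDUFB4 was at 8.97, 7.76 and 8.83 FPKM, a difference of -0.10 ± 0.20. NDUFB3 was at 4.53, 4.55 and 3.82 FPKM, a difference of -0.10 ± 0.21, and NDUFB8 at 7.28, 7.04 and 5.87 FPKM, a difference of -0.16 ± 0.21. For these 4 the libraries labelled shBCAT1 overlapped the control within the bounds. NDUFAB1 (chromosome 16, 23581014 to 23596318), the mitochondrial acyl carrier protein, serves fatty acid and iron-sulfur cluster synthesis as well as complex I. It was at 9.88 FPKM in the control, against 6.94 for the library labelled shBCAT1 1 and 5.25 for that labelled shBCAT1 2, a difference of -0.63 ± 0.24. Its bounds lay below the control in the library labelled shBCAT1 2 (3.59 to 6.92 against 7.497 to 12.3) and overlapped it in the other. With the length trend removed the difference of NDUFAB1 was -0.26.

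The subunit transcripts are short, and short transcripts as a class were lower in these libraries. The tested subunits had a median GENCODE transcript length of 749.7 bases, against 2020 over all genes tested, and 22 of them lay between 500 and 1000 bases. Over all genes tested, the difference from the control went with length, with Spearman's rho of 0.446 across 3800 genes. Among genes other than subunits, the median difference was -0.38 below 500 bases, -0.43 at 500 to 750, -0.28 at 750 to 1000, -0.17 at 1000 to 1500, -0.05 at 1500 to 2500 and 0.05 above 2500. Level went with the difference too: other genes at 1 to 3 FPKM had a median of 0.0034 and those above 30 FPKM a median of -0.39. The next values set a length range and a minimum level, which leaves level itself unmatched. Among the 315 other genes of 500 to 1000 bases with at least 3 FPKM, the median difference was -0.40 (84.8% lower in both libraries). The 21 subunits in that class had a median of -0.41, with 19 (90.5%) lower in both. Among the subunits themselves, rho between difference and length was 0.159 over 30 genes.

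Length in the annotation need not be the length the authors' models used, so a second measure was read from the bounds, the number of equivalent fragments behind 1 FPKM. It was taken from the most abundant entry of each gene, as the median over libraries. For genes with several transcripts it also holds the uncertainty of fragment assignment, so it is not length alone. NDUFA2, with 3 entries, has 2.94 at 792.5 bases, and NDUFS8, with 1 entry, has 9.33 at 791 bases. NDUFA9 has a GENCODE length of 8363 bases but 21.8 fragments per FPKM, like NDUFV1 with 22.1 at 1596 bases. NDUFS6 has 1082 bases but 5.33 fragments per FPKM, as NDUFB7 has at 531 bases. Among the 209 other genes with 4 to 8 fragments per FPKM and at least 3 FPKM, the median was -0.43 (84.7% lower in both). The 16 subunits in that class had a median of -0.435, with 15 (93.8%) lower in both.

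With the trend on length removed from all genes, the subunits' median difference was -0.16, and 17 of 30 (56.7%) were lower in both libraries, against 34.7% of all genes. NDUFB3, NDUFB4, NDUFB7, NDUFB8, NDUFB10, NDUFC1 and NDUFS4 then changed sign, with differences of 0.0458 to 0.275. With the trend on fragments per FPKM removed, it was -0.14, with 20 of 31 (64.5%) lower in both, against 35.8%. The distance from other genes of the same length was not the same in each class. These classes are not matched for level. At 1000 to 1500 bases, NDUFB11, NDUFS6 and NDUFS7 had a median of -0.55 against -0.17 for other genes, or -0.22 for those with at least 3 FPKM. By fragments per FPKM, NDUFS6 falls in the class of 4 to 8, where other genes had a median of -0.37. At 1500 to 2500 bases, NDUFB5, NDUFC2 and NDUFV1 had a median of -0.43 against -0.05. At 750 to 1000 bases, the 8 subunits had a median of -0.41 against -0.28, and 7 of them lay below that median. At 500 to 750 bases, the 14 subunits had a median of -0.40 against -0.43 for other genes. Below 500 bases NDUFB1 was at -0.73 against -0.38, and above 2500 bases NDUFA9 was at -0.37 against 0.05. By fragments per FPKM, NDUFA9 falls in the class of 16 to 32, where other genes had a median of -0.05. By length, 21 of 30 subunits lay below the median of other genes in their class, and 17 of 27 among those with at least 3 FPKM. By fragments per FPKM the counts were 23 of 31 and 18 of 27.

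**Figure D3:**
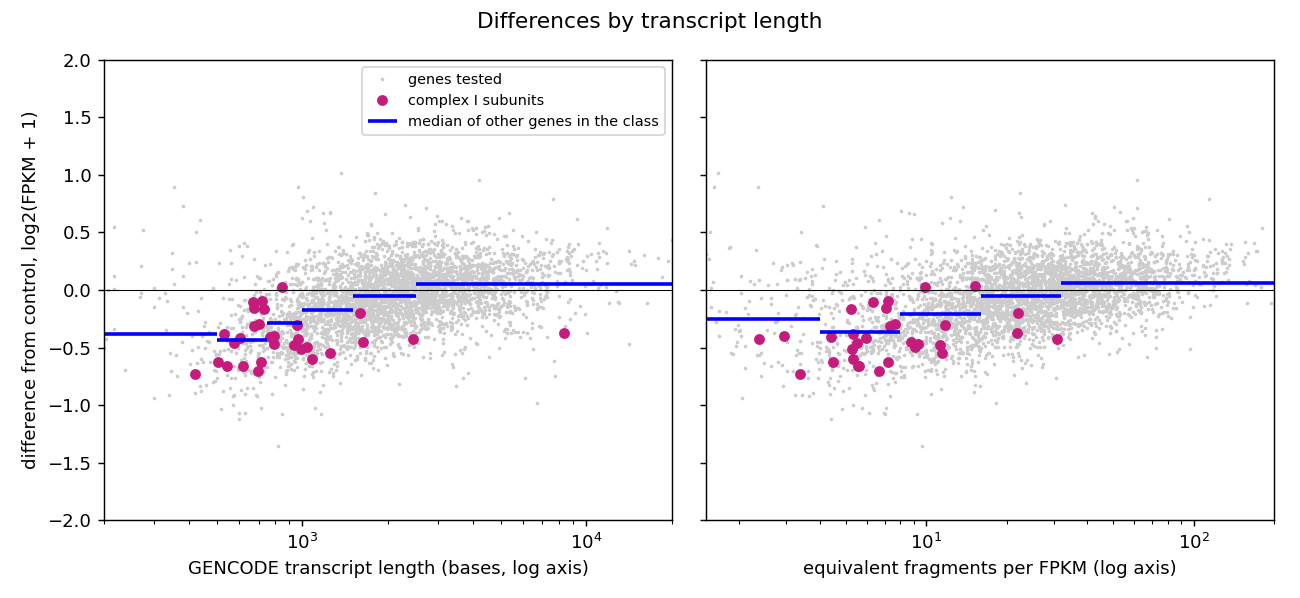
Difference from the control in log2(FPKM + 1) against GENCODE transcript length (left) and against equivalent fragments per FPKM (right), both on log axes; grey points are the genes tested, coloured points the complex I subunits and lines the median of other genes in each class. Subunits cluster at the short end, where other genes are also below 0, and 27 tested genes lie beyond the vertical axis.

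Genes for the assembly of complex I and for the rest of the respiratory chain are given in the order control, shBCAT1 1 and shBCAT1 2 by label. No gene of these lists had a limma adjusted p under 0.05. Of the complex I assembly factors, 5 of 15 were tested. All 5 lay below the control in each library (median -0.37), against 43.7% of all genes tested. It was 4 of 5 with the length trend removed, against 34.7%. With the trend on fragments per FPKM removed it was 3 of 5, against 35.8%. ECSIT, part of the assembly complex for the membrane arm, was at 3.62, 2.31 and 1.98 FPKM, NDUFAF8 at 13.4, 9.38 and 6.66 FPKM, and TIMMDC1, a membrane-arm assembly factor, at 1.77, 1.02 and 1.27 FPKM. Complex II, succinate dehydrogenase, had a median of -0.11 over 3 tested genes, with SDHC lower in both at 1.63, 1.11 and 1.37 FPKM. SDHA was at 3.89, 3.15 and 3.96 FPKM and SDHB at 2.95, 2.45 and 3.42 FPKM.

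Complex III passes electrons from ubiquinol to cytochrome c. It had a median of -0.34, and 7 of its 9 genes were lower in both, against 43.7% of all genes tested. Its Rieske iron-sulfur protein UQCRFS1 was at 7.29, 3.92 and 3.41 FPKM, UQCRQ at 5.10, 3.45 and 3.22 FPKM and UQCR11 at 7.05, 4.5 and 5.17 FPKM. Complex IV, cytochrome c oxidase, had a median of -0.50, and 10 of 10 tested genes were lower in both, of 11 listed. Its median length was 687.5 bases. Among other genes of 500 to 750 bases with at least 3 FPKM, 89.6% were lower in both. COX7C was at 59.1, 38.5 and 33.7 FPKM, COX6A1 at 43.5, 26.4 and 27.9 FPKM and COX5B at 40.4, 28.4 and 23.2 FPKM. Complex V, the ATP synthase, had a median of -0.36, with 16 of 17 lower in both, against 43.7% of all genes tested. ATP5F1E was at 74.3, 48.2 and 38.8 FPKM, ATP5ME at 50.3, 35.7 and 24.4 FPKM and ATP5MF at 57.8, 40.8 and 39.2 FPKM. With the length trend removed, 4 of 9 genes of complex III were lower in both, 5 of 10 of complex IV and 8 of 17 of complex V. The share over all genes was then 34.7%. With quantile normalization the counts were 5 of 9, 6 of 10 and 10 of 17 in the same order, against 32.2% of all genes.

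The remaining lists had median lengths of 1891 bases (mitochondrial content) and 4582 bases (regulators). General markers of mitochondrial content had a median of -0.22, with 11 of 14 lower in both, against 43.7% of all genes tested. With the length trend removed it was again 11 of 14, against 34.7%. With quantile normalization it was 5 of 14 (35.7%), against 32.2%, and the list's median was -0.06. Among those lower as tested were the ADP/ATP carriers SLC25A6 (26.9, 21.1 and 21.6 FPKM) and SLC25A5 (24.3, 20.9 and 20.6 FPKM) and the phosphate carrier SLC25A3 (10.5, 8.16 and 8.52 FPKM). The bounds of SLC25A3 were wide in the library labelled shBCAT1 2, at 0.284 to 16.8 FPKM. VDAC1 was higher in both, at 6.24, 6.39 and 7.86 FPKM. Of the regulators of mitochondrial gene transcription, 4 of 11 were tested, with a median of 0.08. The coactivator PPRC1 was at 0.959, 1.34 and 1.46 FPKM and the mitochondrial RNA polymerase POLRMT at 2.20, 2.46 and 2.95 FPKM. YY1 was at 1.62, 1.29 and 1.53 FPKM and ESRRA at 3.94, 3.75 and 3.86 FPKM. With the length trend removed, the medians were -0.16 for complex I, -0.29 for its assembly factors, -0.10 for complex II, -0.01 for complex III, -0.15 for complex IV, -0.14 for complex V and -0.20 for mitochondrial content. With the trend on fragments per FPKM removed they were -0.14, -0.31, -0.14, -0.28, -0.19, -0.20 and -0.20 in the same order. The value of complex III therefore depended on which of the 2 trends was removed.

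**Figure D4:**
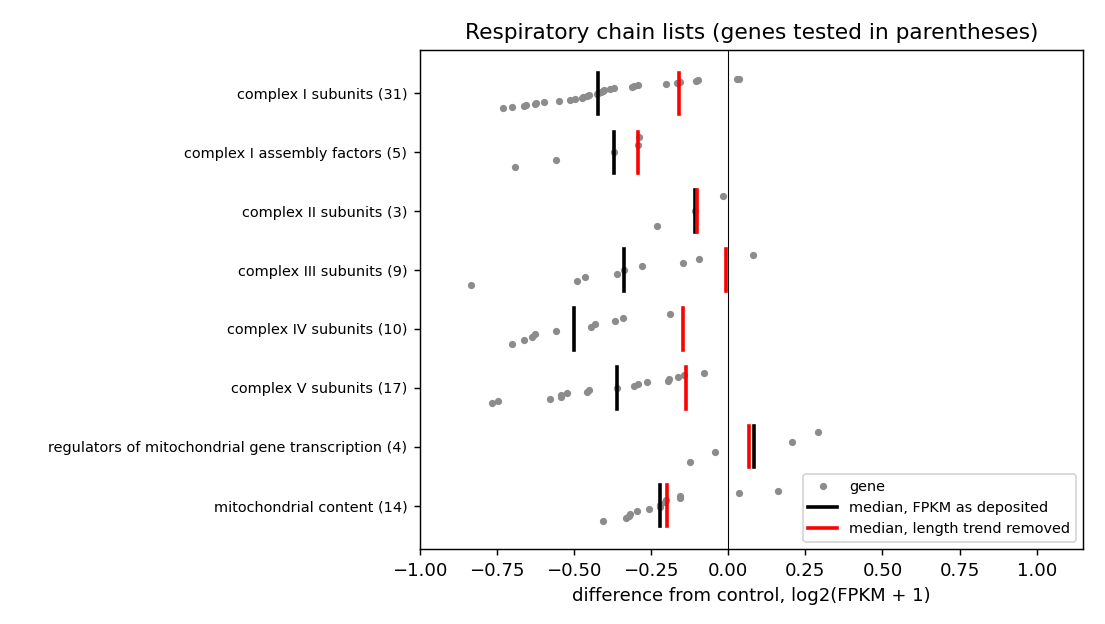
Difference from the control in log2(FPKM + 1) for each tested gene of the respiratory chain lists, with black ticks for the median and red ticks for the median after the trend on transcript length was removed. Complexes I, III, IV and V have medians of -0.42, -0.34, -0.50 and -0.36 as deposited and between -0.16 and -0.01 with the trend removed.

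Many of these genes share sequence or exons with others, which limits how fragments could be assigned. GENCODE names at least 1 pseudogene for 17 of the 36, with 12 each for NDUFA5 and NDUFB4, 6 for NDUFS5 and 5 for NDUFA3. Exons of 22 overlap an exon of another gene, in 17 cases on the opposite strand, such as NDUFA7 with RPS28 and NDUFA3 with TFPT, and the strand of the libraries is not given in the sources used here. NDUFC2 shares its strand with the read-through gene NDUFC2-KCTD14. NDUFA10, NDUFB7, NDUFS4 and NDUFV3 had neither a named pseudogene nor an exon overlap, and of these the tested NDUFB7 and NDUFS4 differed from the control by -0.38 and -0.31, or by 0.0458 and 0.0639 with the length trend removed.

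Promoter windows were read for motifs of 2 factors known as activators of nuclear genes for the respiratory chain, and 3 windows that hold a match are shown because they give the sequence in front of subunits whose levels are described above. The windows are RefSeq's, on GRCh38.p14, from 250 bases before to 50 after the start of 32 subunits. NDUFB5, NDUFB9, NDUFC2 and NDUFS5 were not matched. Capitals mark the motif, which is the palindromic NRF1 site in NDUFB4 (chr3:120596147-120596216, plus strand) and the ETS site CCGGAAG or its reverse complement CTTCCGG in NDUFS3 (chr11:47578942-47579011, plus strand) and NDUFB7 (chr19:14572067-14572120, minus strand).
NDUFB4: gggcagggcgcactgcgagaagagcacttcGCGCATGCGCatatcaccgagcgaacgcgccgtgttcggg
NDUFS3: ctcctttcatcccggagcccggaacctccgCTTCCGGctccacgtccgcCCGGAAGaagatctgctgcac
NDUFB7: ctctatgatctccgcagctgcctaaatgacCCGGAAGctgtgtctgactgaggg

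The NRF1 letters, as in NDUFB4, were in 2 of 32 subunit windows (6.25%), those of NDUFB4 and NDUFA8, on either strand. They were in 2.67% of 3077 windows of genes tested and 1.36% of all 27305 windows. The ETS letters were in 5 of 32 (15.6%), those of NDUFS1, NDUFS3, NDUFB7, NDUFA13 and NDUFA1, against 24.1% of genes tested and 10.7% of all. Among 29 windows of complexes III to V, 44.8% held the ETS letters and 3.45% the NRF1 letters. No subunit window held both motifs. A match describes these letters in this window and is not a measured site.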

How the data were processed

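RNA of 3 libraries (1 control, 2 labelled shBCAT1) was analysed from the deposited FPKM values, which the authors computed per RefSeq accession with lower and upper bounds. Trim Galore, TopHat, Cufflinks and the build hg38 are named per the submitters' processing notes; no version, setting, annotation or strand is given in the sources used here. FPKM was summed over the 56882 entries of each file by gene symbol (26562 genes; 411 of 50337 accessions had no name). Genes with a status other than OK (341) were left out. The SD of a value was taken as its distance to the upper bound divided by 2, and the square of value over SD as equivalent fragments. For genes with several entries, SDs were combined as the root of their summed squares, which leaves out covariance between entries. Bounds of a gene are its value ± 2 SD. With this reading, 74.1% to 76.1% of tested genes with 1 entry gave whole fragments (tolerance 0.01). These bounds cover counting error and the assignment of fragments to transcripts, not the spread between libraries, and depth is known only through them.

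The difference of the libraries labelled shBCAT1 from the control was tested with limma 3.58.1 (R 4.3.3, with an intensity trend) on log2(FPKM + 1), two-sided, over the 3889 genes that averaged 1 FPKM or more, with Benjamini-Hochberg adjustment over all of them. Other tools were Python 3.11.15 and pandas 2.3.3, and the fit was tested on simulated data. Lengths and overlaps came from GENCODE release 29. The members, lists and tests were chosen with earlier results of these data known. Full values were given by rule to the core subunits, the 8 lower and the 4 least lower subunits ranked by the smaller of their differences in both libraries, and those with bounds apart in both; up to 3 genes of each other list were named by the same ranking. The remaining subunits, SDHA, SDHB and ESRRA are given for completeness. Alternatives were 12 planned and 2 added after seeing the data: removing the trend on fragments per FPKM, and testing protein-coding genes only.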

Additional observations from a re-analysis of the deposited data

How the results depend on the processing

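No paired analysis was possible because the control is 1 library with no number in its label, so the groups share fewer than 2 numbers. The genes called, 14 as tested, were 0 with no minimum level (of 16449 genes), 8 with a minimum of 5 FPKM (of 1042), 7 with the most abundant entry of each gene (of 3413) and 0 among protein-coding genes alone (of 3628); fewer or more genes enter these tests, and the cause was not tested further. No subunit was called under any alternative with a test, and the number with an unadjusted p under 0.05, 7 as tested, ran from 0 (trend on fragments per FPKM removed) to 10 (protein-coding genes alone). The subunits' median, -0.42 as tested, was -0.50 with a pseudocount of 0.1, -0.26 with 5, -0.46 with a minimum of 5 FPKM, -0.36 with median-of-ratios scaling, -0.25 with quantile normalization, -0.16 with the length trend removed and -0.14 with the trend on fragments per FPKM removed. The count lower in both libraries, 27, was 17 of 30 with the length trend removed. Leaving out a library labelled shBCAT1 leaves 1 against 1, which gives values and no test. The median was -0.44 without the library labelled shBCAT1 1 and -0.41 without that labelled shBCAT1 2, with 30 and 28 subunits lower. Of 423 subunit differences under 14 alternatives, 399 kept their direction and 24 did not, and 19 subunits kept it under every alternative run. Those that changed it did so under quantile normalization (NDUFA3 0.0178, NDUFB3 0.0125, NDUFB4 0.0597, NDUFB8 0.00562, NDUFV1 0.0709), with the length trend removed (NDUFB3 0.261, NDUFB4 0.275, NDUFB7 0.0458, NDUFB8 0.22, NDUFB10 0.0752, NDUFC1 0.187, NDUFS4 0.0639), with the trend on fragments per FPKM removed (NDUFB3 0.219, NDUFB4 0.228, NDUFB8 0.164, NDUFB10 0.0159, NDUFC1 0.174, NDUFS4 0.0014) and with the most abundant entry (NDUFB5 0.0685, NDUFB8 0.0204). Leaving out either library labelled shBCAT1 gave NDUFA6 -0.139 to 0.209, NDUFA8 -0.0647 to 0.118, NDUFB3 -0.199 to 0.00277 and NDUFC1 -0.397 to 0.0621. Depth limits the subunits with few fragments, such as NDUFB1, NDUFC1 and NDUFS1.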
